A study of Schizosaccharomyces pombe with 6 samples.

Results

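The shorter transcribed stretches of fission yeast (Schizosaccharomyces pombe) are described here, namely runs of 10 to 19 consecutive same-strand tiling probes that found RNA in the total RNA of the cell. A probe counted as on when its input signal was well above background on all 6 arrays, by the flag that the scanner software set. A stretch was a run of on probes that began and ended with an on probe and could bridge single off probes, and its length counted the bridged probes. Only the densely tiled probes, numbered 1 to 147000, were searched, with odd and even numbers read as opposite strands. Of 3908 stretches of at least 3 probes, 957 had 10 to 19 probes, 1130 were long (20 or more) and 1821 were very short (3 to 9). The 957 held 12382 on probes, which is 20.7% of the 59896 on probes of the dense part, and 13684 probes in all. The input alone chose the stretches. The RNA that was purified with the baits played no part in the choice, although the ratio of purified to input RNA has that same input as its denominator.

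The baits were Red1-FTP (strain p919), Mtl1-FTP (strain p920) and Red5-FTP (strain p1160), each a protein carrying a Flag, TEV site and protein A tag at its C-terminus. By the study's strain list, the Red5-FTP strain differed from the other strains in mating type and in its ade6 allele. A difference between Red5-FTP and another bait therefore cannot be told apart from one of strain background. Every strain was grown in YEA, a rich medium, at 30 °C, and RNA was recovered after purification through both affinity tags (the IP, labelled with Cy5). It was hybridised against total RNA of the same tagged strain (the input, labelled with Cy3) on 2 arrays per bait, described as biological replicates. Both RNAs were reverse transcribed with random hexamers. A mock purification from untagged cells was not part of the data used, and the dyes ran the same way on every array, so RNA that sticks to the beads and a dye effect cannot be told apart from binding to the baits.

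Red1 and Mtl1 form the core of MTREC, a nuclear complex of fission yeast that hands RNA to the exosome, the machine that degrades RNA from its 3′ end. Mtl1 is a helicase related to Mtr4, which in budding yeast feeds RNA into the exosome. Red1 is a zinc-finger protein that holds the complex together, and Red5 is a zinc-finger protein of a submodule with the poly(A)-binding protein Pab2 and with Rmn1. Known targets are meiotic mRNAs that are destroyed during vegetative growth and short-lived noncoding RNAs, among them RNAs antisense to genes or upstream of promoters. Such unstable RNAs are often short, and so are the RNAs of small genes. A stretch may also be a piece of a longer RNA whose other probes fell below the background limit. The dense probes tile chromosome 2 and the start of chromosome 3, per the study's methods. The files used here tie no single probe to a gene, a position or a sequence, so stretches are named by their first probe and none is assigned to an RNA class.

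Per array, 47.1 to 57.5% of tile probes had input well above background, 55.3 to 67.3% had such IP signal, and 0 were saturated. Of 1577 probes outside the tiling, whose names begin with rTm or randTm and are not explained in the files, 9.58 to 26.9% passed the same limit in the input and 9.83 to 14.6% in the IP per array, and 7.93% passed in the input of all 6 arrays, the rule that made a tile probe on. Repeated copies of the same probe differed by a median SD of 0.104 to 0.157 in log2 ratio per array. Slide 1 carried the first replicate of every bait. The second replicates of Red1-FTP and Red5-FTP shared slide 2, and that of Mtl1-FTP was on slide 3. Values below are log2 of IP over input, with each array centred on the median of all its probes, so that 0 is the median probe of the array and not equal amounts of RNA. A stretch has the mean over its on probes as its value.

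The shorter stretches gave weaker input signals than the long ones. Their mean input signal had a median of 326, with 10% of stretches under 178 and 10% over 1208, against a median of 397 in the long stretches and 194 in the very short ones. Signals of different probes also depend on their sequence, so an order of input signals is not an order of RNA amounts. They were spread evenly over the strands, with 480 on odd and 477 on even numbers, and over the lengths, with 80 to 109 stretches at each length. No off probe was bridged in 282 of them, 1 was bridged in 289 and 2 or more in 386. Most had company: 424 lay 2 or 3 probes from the next stretch of the same strand, and the median gap was 4 probes. In 217, which are called isolated below, no stretch lay within 10 same-strand probes. The opposite strand was quiet (at most 30% of its probes on) at 707 stretches, detected (at least 70% on) at 99 and in between at 151. The IP was well above background at 99.0% of their spots, so nearly every ratio below has a measured numerator and denominator.

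Calls of higher and lower in the purified RNA were counted for the shorter stretches, and which of them was commoner turned with the centring. With limma's test on the mean of the 3 baits, fitted over all 3908 stretches, 366 of 957 (38.2%) were higher in the IP at a Benjamini-Hochberg adjusted p under 0.05, where the share over all stretches was close, at 36.6%. In the other direction 172 were lower, where the share over all stretches was 23.3%. The remaining 419 did not pass. Of those called, 268 were above 0 and 133 below 0 on 6 of 6 arrays, for which no share over all stretches was taken. A call with a log2 ratio above 1 was made for 82 shorter stretches (8.57%, against 16% of all stretches) and one with a ratio under -1 for 19 (1.99%, against 4.81% of all). With normexp, another background correction that was run on the median signals and adds an offset of 50, 1 was under -1 (27 of all stretches). The median of the 957 means was 0.16, against 0.11 over all stretches. The middle 80% lay between -0.46 and 0.86, and the extremes were -1.69 and 4.39.

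**Figure D1:**
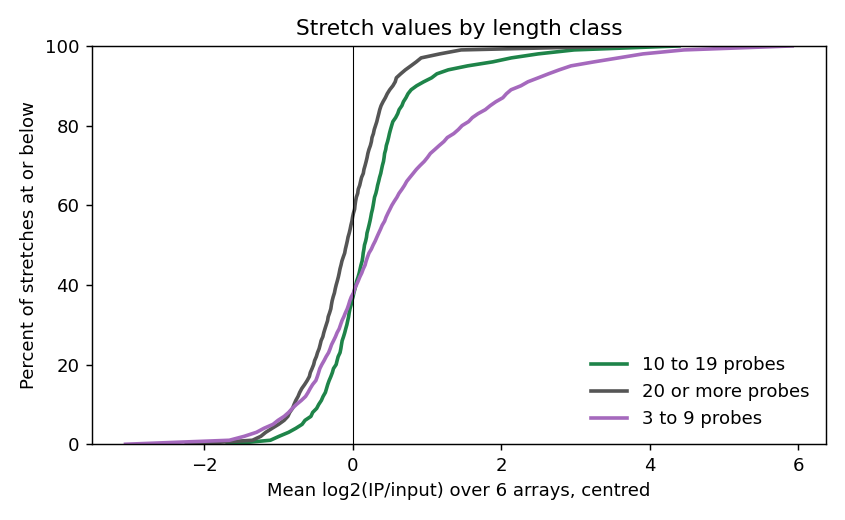
Cumulative share of stretches (vertical axis, percent) by mean log2 ratio of IP over input across 6 arrays (horizontal axis), for stretches of 10 to 19, 20 or more and 3 to 9 probes. The curve of the shorter stretches passes its median at 0.16, between the long (-0.09) and the very short ones (0.27), and its upper tail runs to 4.39.

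These counts depended on where the centre of an array is placed. The mean of all probes lay 0.231 to 0.423 above the median. With that centre 149 shorter stretches were higher and 398 lower, against 833 and 1769 of all 3908. With signals from before the dye normalization the counts were 186 higher and 261 lower, against 1024 and 1275 of all. The uncentred value table of the series gave 172 and 277, against 927 and 1326 of all. With normexp background correction they were 414 and 70, against 1593 and 498 of all. The share called higher was smaller among shorter stretches than over all in these settings, save for normexp, where it was larger. The share called lower was smaller in each. A set of 137 shorter stretches was higher and 67 were lower in each of 18 settings that shared the same stretches. No share over all stretches was taken for that set.

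The mean of each bait's 2 arrays called fewer stretches than the mean of the 3 baits. These calls came from the same limma fit, in which the 3 baits shared the estimate of the spread. Calls with different baits are therefore not independent tests of a stretch. With Red1-FTP, 153 shorter stretches were higher (22% of all stretches were) and 94 lower (8.44% of all). With Mtl1-FTP, 210 were higher (22.1% of all) and 64 lower (8.78% of all). With Red5-FTP, 234 were higher (24.8% of all) and 92 lower (12.7% of all). Red1-FTP thus called 16.0% of the shorter stretches higher, below its share over all stretches, while Mtl1-FTP and Red5-FTP lay within 1 percentage point of theirs, at 21.9% and 24.5%. Of 333 stretches higher with any bait, 104 (31.2%) were higher with all 3, where over all stretches the share was 46.4%. Of 147 lower with any bait, 32 (21.8%) were lower with all 3, where over all stretches it was 24.9%. Among the shorter stretches 3 were higher with a bait and lower with another, without a share over all stretches to compare. Across the 957 stretches, log2 ratios correlated at a Pearson r of 0.795 to 0.889 between the replicates of a bait (3 pairs), at 0.687 to 0.876 between baits on the same slide (4 pairs) and at 0.609 to 0.859 between baits on different slides (8 pairs). The stretches share probes' chemistry and slides and are no replicates, so these figures are descriptive.

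Shorter stretches were set against the longer and the very short ones on each array. They averaged 0.23 ± 0.10 in log2 ratio (SD, n = 6 arrays), the long stretches -0.10 ± 0.15 and the very short ones 0.54 ± 0.06. In array order, the shorter stretches had 0.27 and 0.07 on the Red1-FTP arrays, 0.24 and 0.26 on the Mtl1-FTP arrays and 0.36 and 0.19 on the Red5-FTP arrays. Red1-FTP replicate 2 was the lowest and also had a median stretch below 0, at -0.09, where the other 5 arrays had medians of 0.09 to 0.37. The difference of shorter minus long stretches was 0.33 ± 0.24 and was positive on 6 of 6 arrays. It ranged from 0.01 on Red1-FTP replicate 2 to 0.66 on Red5-FTP replicate 1, and averaged 0.43 within slide 1, 0.09 within slide 2 and 0.50 on the array of slide 3. Flipping the signs of the 6 array values in all ways (an exact, two-sided permutation test) gave p = 0.03125, the smallest that 6 arrays allow, and an adjusted p of 0.05 over 8 contrasts, which is at and not under the threshold, as it is for every contrast below with this p. The sign flips treat the 6 arrays as independent, although they shared 3 slides. In a limma fit with the slide as a random block, arrays of the same slide correlated at 0.565 within stretches. The p-values of these contrasts may therefore be too small. By bait, shorter minus long was 0.21 ± 0.27 on the Red1-FTP arrays, 0.36 ± 0.20 on the Mtl1-FTP arrays and 0.42 ± 0.35 on the Red5-FTP arrays (SD, n = 2 each).

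The difference was of similar size at matched input. With long stretches weighted to the same input level, shorter minus long was 0.31 ± 0.24, positive on 5 of 6 arrays, and did not pass (exact permutation p = 0.0625, adjusted 0.0833), with Red1-FTP replicate 2 at -0.01. Compared with the very short stretches, the shorter ones were lower by -0.31 ± 0.13 on 6 of 6 arrays (exact permutation p = 0.03125, adjusted 0.05). The order of the means was therefore very short, shorter and long, and it held on each of the 6 arrays. The medians broke it on 2 arrays, since Red1-FTP replicate 2 had -0.09 in the shorter and 0.02 in the long stretches, and Red5-FTP replicate 1 had 0.37 in the shorter and 0.34 in the very short ones. In calls, 38.2% of the shorter stretches were higher in the IP, against 23.0% of the long and 44.1% of the very short ones. Calls of lower were made in 172 of 957 shorter stretches, 374 of 1130 long ones (33.1%) and 363 of 1821 very short ones (19.9%).

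**Figure D2:**
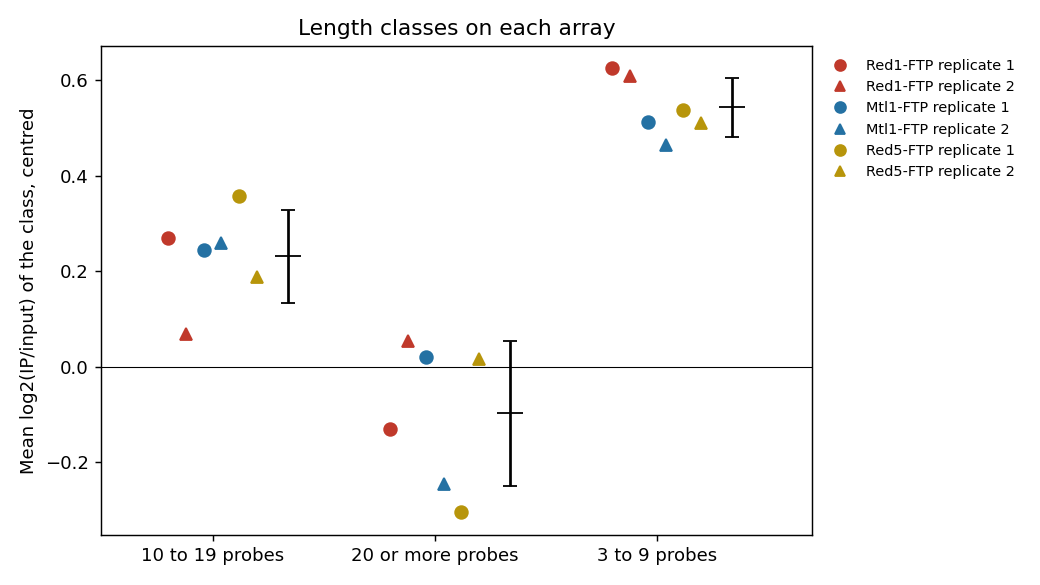
Mean log2 ratio of IP over input (vertical axis) of each length class on the 6 arrays, with a point per array (circle for replicate 1, triangle for replicate 2) and the mean ± SD of the arrays in black. Stretches of 10 to 19 probes lie between 0.07 and 0.36, long ones between -0.30 and 0.05 and very short ones between 0.46 and 0.62.

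The ratio also changed with length inside the range, mainly at its short end. Stretches of 10 or 11 probes averaged 0.39 ± 0.10 (210 stretches), those of 12 or 13 probes 0.27 ± 0.11, of 14 or 15 probes 0.16 ± 0.13, of 16 or 17 probes 0.19 ± 0.11, and of 18 or 19 probes 0.11 ± 0.06 (SD, n = 6 arrays each). The medians of these groups were closer together, from 0.11 to 0.19. Which tail carried the decline in the means was not tested. Calls of lower were commonest at the long end, with 45 of 170 stretches of 18 or 19 probes (26.5%), against 25 of 210 (11.9%) at 10 or 11 probes. At the limits of the range, stretches of exactly 10 probes averaged 0.56 ± 0.10 and those of exactly 9 probes 0.41 ± 0.13. Stretches of exactly 19 probes averaged 0.05 ± 0.07 and those of exactly 20 probes 0.12 ± 0.08.

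The opposite strand marked the largest difference in means among the shorter stretches. Where at least 70% of the opposite probes were on in the input, the stretches averaged 0.80 ± 0.11, and where at most 30% were, 0.15 ± 0.11 (SD, n = 6 arrays). The difference was 0.65 ± 0.20, positive on 6 of 6 arrays (exact permutation p = 0.03125, adjusted 0.05). It was 0.62 within slide 1 and 0.81 within slide 2, with 0.42 on the array of slide 3. The groups of 6 values did not overlap, since those with a detected opposite strand lay at 0.63 to 0.94 and those with a quiet one at -0.05 to 0.28. Of the 99 stretches with a detected opposite strand, 61 were called higher (61.6%) and 10 lower. Of the 707 with a quiet one, 241 were called higher (34.1%) and 144 lower. The 151 in between averaged 0.22 ± 0.13. Medians of the stretch means lay closer together than the averages, at 0.49 with a detected, 0.22 with an in-between and 0.13 with a quiet opposite strand.

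Where both strands were detected, the stretch and the RNA facing it differed in the IP. The 99 stretches averaged 0.80 ± 0.11 while their opposite strands averaged 0.19 ± 0.08, and the stretch had the higher mean ratio in 73 of 99 pairs. Among these, 57 stretches had less input than the opposite strand, with median input signals of 224 in the stretch and 1034 opposite. They averaged 1.21 ± 0.22 against 0.05 ± 0.11 on the opposite strand, and 50 of 57 were the higher strand. In the 42 stretches with more input than the opposite strand, the averages were 0.25 ± 0.13 in the stretch and 0.38 ± 0.07 opposite, and 23 of 42 were the higher strand. These pairs were split by input, which is the denominator of both ratios, so the values are a description. At the 707 stretches with a quiet opposite strand, that strand exceeded the stretch by 0.38 ± 0.19 in log2 ratio (range 0.19 to 0.69), but only 20.6% of its input spots and 39.0% of its IP spots were well above background, so its ratio is poorly measured.

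**Figure D3:**
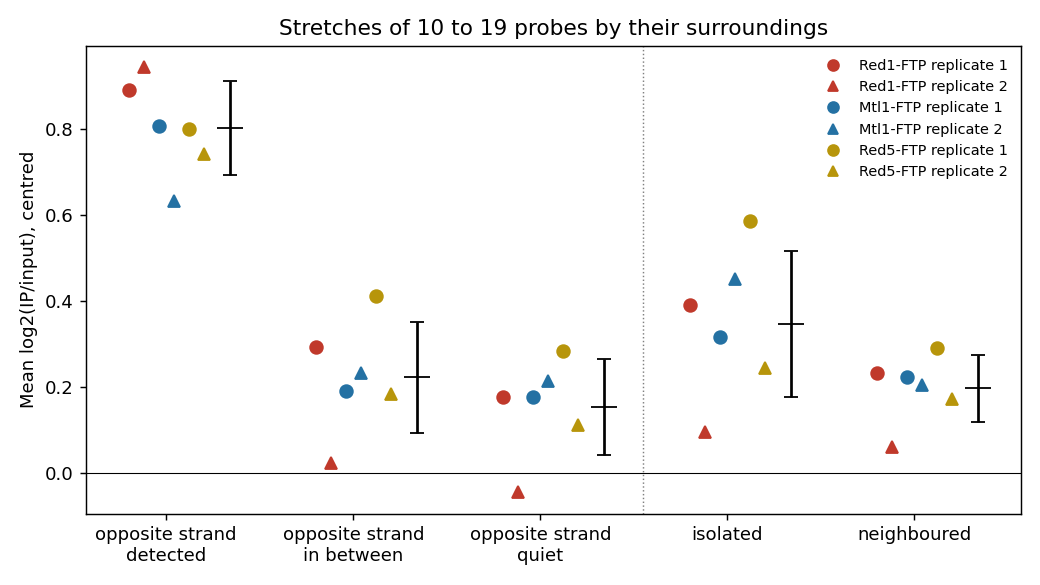
Mean log2 ratio of IP over input (vertical axis) of the shorter stretches grouped by how much of the opposite strand was on in the input (left) and by whether another same-strand stretch lay within 10 probes (right), with a point per array and the mean ± SD of the 6 arrays in black. Stretches with a detected opposite strand lie at 0.63 to 0.94 on the 6 arrays, above all values of those with a quiet opposite strand (-0.05 to 0.28).

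Isolated stretches had a higher mean than those with a near neighbour on every array. The 217 isolated ones averaged 0.35 ± 0.17 and the 740 neighboured ones 0.20 ± 0.08 (SD, n = 6 arrays). The difference of 0.15 ± 0.10 was positive on 6 of 6 arrays (exact permutation p = 0.03125, adjusted 0.05), with 0.18 within slide 1, 0.05 within slide 2 and 0.25 on the array of slide 3. The isolated stretches also had higher input signals, with a median of 426 against 299. They were called lower less often, at 26 of 217 (12.0%), than the neighboured ones, at 146 of 740 (19.7%), without a test of that difference. Being next to a long stretch made little difference to the mean, at 0.18 ± 0.10 for 257 stretches with a long neighbour and 0.21 ± 0.07 for 483 with other neighbours.

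Close neighbours had similar ratios. Across 424 stretches with the next same-strand stretch 2 or 3 probes away, the ratios of the stretch and its neighbour correlated at a Pearson r of 0.46 (Spearman 0.46), with a median absolute difference of 0.36. At 4 to 10 probes r was 0.20 (316 stretches), at 11 to 30 probes -0.07 (167 stretches), and beyond 30 probes -0.45 (Spearman -0.25, 50 stretches). These are correlations across stretches on the same arrays and carry no p-value.

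The ratio sloped along the stretches. Side A is the lower-numbered side on odd probes and the higher-numbered side on even probes, and side B the other. Where facing stretches of opposite strands met at side A they lay a median of 12.5 probes apart and 8.73% overlapped. Where they met at side B the median gap was 1.5 probes and 34.7% overlapped. Which side holds the start of the RNA was not determined here. From side A to side B 5 equal pieces of the shorter stretches averaged 0.39 ± 0.12, 0.26 ± 0.08, 0.20 ± 0.09, 0.15 ± 0.09 and 0.11 ± 0.13 (SD, n = 6 arrays). The third nearest to side A exceeded the third nearest to side B by 0.24 ± 0.07 on 6 of 6 arrays, with a range of 0.17 to 0.35 (exact permutation p = 0.03125, adjusted 0.05). The difference was 0.28 within slide 1, 0.21 within slide 2 and 0.20 on the array of slide 3. By bait it was 0.27 ± 0.03 on the Red1-FTP arrays, 0.28 ± 0.11 on the Mtl1-FTP arrays and 0.18 ± 0.01 on the Red5-FTP arrays (SD, n = 2 each).

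The slope was also present in the 156 stretches that were isolated on their own strand and had a quiet opposite strand, although stretches of the opposite strand beyond their ends were not excluded. There the piece at side A averaged 0.44 ± 0.22 and the piece at side B 0.05 ± 0.24. The input, as log2 above the median of the array, was equally low in both outer pieces of all shorter stretches, at 2.78 ± 0.19 and 2.78 ± 0.18, and reached 3.14 ± 0.17 in the middle. The long stretches sloped the same way at a lower level, with 0.10 ± 0.12 in the piece at side A and -0.25 ± 0.12 in the piece at side B. The 2 outermost probes at each end exceeded the inner probes by only 0.05 ± 0.05, on 5 of 6 arrays, short of the threshold (exact permutation p = 0.09375, adjusted 0.107).

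**Figure D4:**
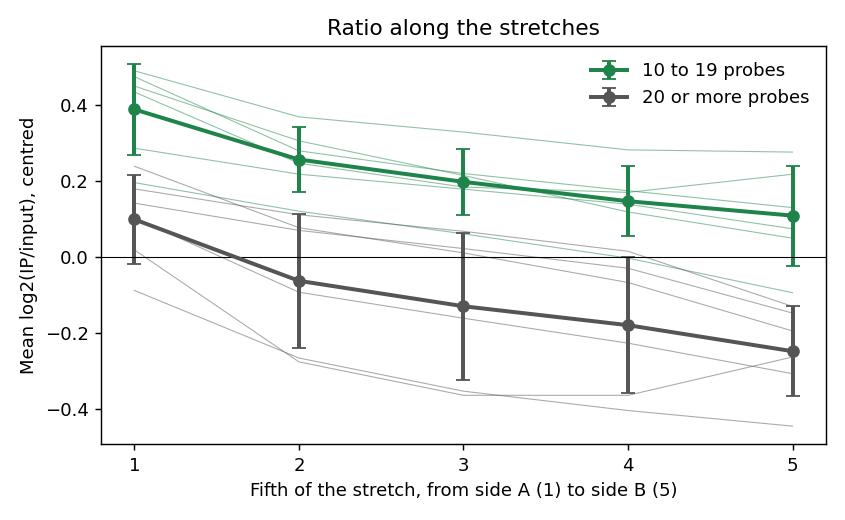
Mean log2 ratio of IP over input (vertical axis) along stretches cut into 5 equal pieces from side A to side B (horizontal axis), with thin lines for single arrays and thick lines with bars for the mean ± SD of 6 arrays, for stretches of 10 to 19 and of 20 or more probes. The shorter stretches run from 0.39 at side A to 0.11 at side B, and the long ones lie below them from 0.10 to -0.25.

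Shorter stretches with input signals under the median of the group exceeded those above it by 0.06 ± 0.14, on 4 of 6 arrays, short of the threshold (exact permutation p = 0.34375, adjusted 0.34375). The value ran from -0.06 to 0.20 over the other settings tried. In 5 equal groups by input, from low to high, the averages were 0.24 ± 0.06, 0.27 ± 0.07, 0.27 ± 0.11, 0.18 ± 0.17 and 0.21 ± 0.16. The even-numbered strand averaged 0.26 ± 0.10 and the odd-numbered 0.20 ± 0.09, and even exceeded odd by 0.06 ± 0.02 on 6 of 6 arrays, a difference that was not tested. Of the 82 called above a log2 ratio of 1, 41.5% had a detected opposite strand and 31.7% were isolated. The other 284 called higher had 9.51% and 22.5% of these, the 419 not called 6.68% and 24.1%, and the 172 called lower 5.81% and 15.1%, with no test between them.

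The most enriched shorter stretch began at sp40c_37327, with 19 probes on the odd strand. Its log2 ratios were 4.57 and 4.95 on the Red1-FTP arrays, 4.59 and 4.20 on the Mtl1-FTP arrays and 2.91 and 5.14 on the Red5-FTP arrays. The mean of 4.39 (SE 0.25) passed (limma adjusted p = 4.52e-06). All arrays lay far above 0, and Red5-FTP replicate 1 was the lowest. Its IP signals of 1460 to 8412 stood over input signals of 125 to 279, and every IP spot was well above background. A very short run 2 probes beyond it, at sp40c_37369, had 3.52, while the long stretch 3 probes before it, at sp40c_37263, had 0.31.

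The next, at sp40c_33191, combined a high ratio with a high input signal. Its 18 probes had an input signal of 1400, above that of 90% of the shorter stretches, and the nearest stretch of its strand lay 23 probes away. The log2 ratios were 4.72 and 5.03 on the Red1-FTP arrays, 4.39 and 4.54 on the Mtl1-FTP arrays and 2.99 and 4.05 on the Red5-FTP arrays. Both Red5-FTP arrays were below the other 4, and the mean was 4.29 (SE 0.14, 19.5-fold, limma adjusted p = 6.39e-07).

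The stretch at sp40c_66518 gave similar values on all arrays, with 4.27 and 4.40 on the Red1-FTP arrays, 3.84 and 4.12 on the Mtl1-FTP arrays and 4.11 and 4.36 on the Red5-FTP arrays. Its mean was 4.18 (SE 0.10, 18.2-fold, limma adjusted p = 3.29e-07), although its 9 on probes varied with an SD of 1.82. Its opposite strand was not on. The stretch at sp40c_137734, with 6 of its 10 probes on, was more even still across the 6 arrays, from 3.07 to 3.26. Yet the next stretch of its strand, 2 probes on at sp40c_137758, had a mean of -0.05. A long stretch 4 probes to the other side of sp40c_137734 had 0.19. High and middling ratios thus met within a few probes of the same strand.

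Of the 10 highest, 3 lay opposite RNA that was detected along their whole length, at sp40c_110880, sp40c_49648 and sp40c_101392. The last had 18 probes and an input of 279, against 6800 on its opposite strand. Its ratios were 3.13 and 3.86 on the Red1-FTP arrays, 3.18 and 2.60 on the Mtl1-FTP arrays and 2.59 and 2.71 on the Red5-FTP arrays, while the opposite strand averaged 0.27. The other two faced inputs of 1786 and 2015 with opposite ratios of -0.35 and -0.38, and averaged 3.76 and 3.72. The remaining 3 of the 10 began at sp40c_91473, sp40c_123720 and sp40c_54190, with 11 or 12 probes and means of 3.84, 3.79 and 3.74. Single arrays of these ranged from 2.73 to 4.93. All of the 10 passed the test (limma adjusted p from 3.29e-07 to 7.99e-06).

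The most depleted stretches were mostly among the longest of the group, with 6 of the 10 lowest at 19 probes. The lowest, at sp40c_53385 with 11 probes, had -0.97 and -0.38 on the Red1-FTP arrays, -1.92 and -2.76 on the Mtl1-FTP arrays and -2.41 and -1.73 on the Red5-FTP arrays. Both Red1-FTP arrays lay above the other 4. The mean was -1.69 (SE 0.16, limma adjusted p = 5.92e-05), which is 3.23-fold lower in the IP. Only 77.8% of its IP spots were well above background, and over probes detected in the IP on all arrays its mean was -1.14.

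Neighbouring stretches made up much of the depleted end. The stretches at sp40c_42531 and sp40c_42567 lay 3 probes apart on the odd strand, with 15 and 19 probes and means of -1.56 and -1.65 (SE 0.18 and 0.14). At sp40c_42531 the ratios were -1.39 and -1.06 on the Red1-FTP arrays, -1.21 and -2.24 on the Mtl1-FTP arrays and -2.29 and -1.16 on the Red5-FTP arrays. At sp40c_42567 they were -1.45 and -1.17 on the Red1-FTP arrays, -1.51 and -2.23 on the Mtl1-FTP arrays and -2.22 and -1.33 on the Red5-FTP arrays. The arrays moved alike in both, and a very short run 2 probes before them, at sp40c_42515, had -1.08. Another chain held sp40c_79399 (-1.44), sp40c_79463 (-1.40) and sp40c_79505 (-1.13), with a very short run at -1.69 between the first pair and gaps of 2 probes. With normexp these 3 were at -0.68, -0.67 and -0.52. The chain ended sharply, since the stretch 5 probes further, at sp40c_79541, had 0.69 (limma adjusted p = 0.00766).

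The stretches at sp40c_145770 (-1.50) and sp40c_100085 (-1.38) also adjoined long depleted ones, at -1.20 and -1.27. With normexp sp40c_145770 was at -0.62. Over probes detected in the IP the means were -1.15 at sp40c_145770 and -0.70 at sp40c_100085, and without bridging the stretch that began at sp40c_100085 had -0.21 and did not pass. Among the 10 lowest, fewer IP spots were detected than in the group as a whole, with 70.6 to 87.0% well above background in the 8 with an input under 400. The other two, at sp40c_75169 and sp40c_109036, had inputs of 1327 and 1472 and 98.0 and 100% of IP spots detected. At sp40c_75169 the ratios were -1.62 and -1.52 on the Red1-FTP arrays, -0.63 and -1.00 on the Mtl1-FTP arrays and -1.13 and -1.09 on the Red5-FTP arrays, a mean of -1.16 (SE 0.08, limma adjusted p = 1.53e-05). At sp40c_109036 the mean was -1.12 (SE 0.11, limma adjusted p = 1.02e-04).

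**Figure D5:**
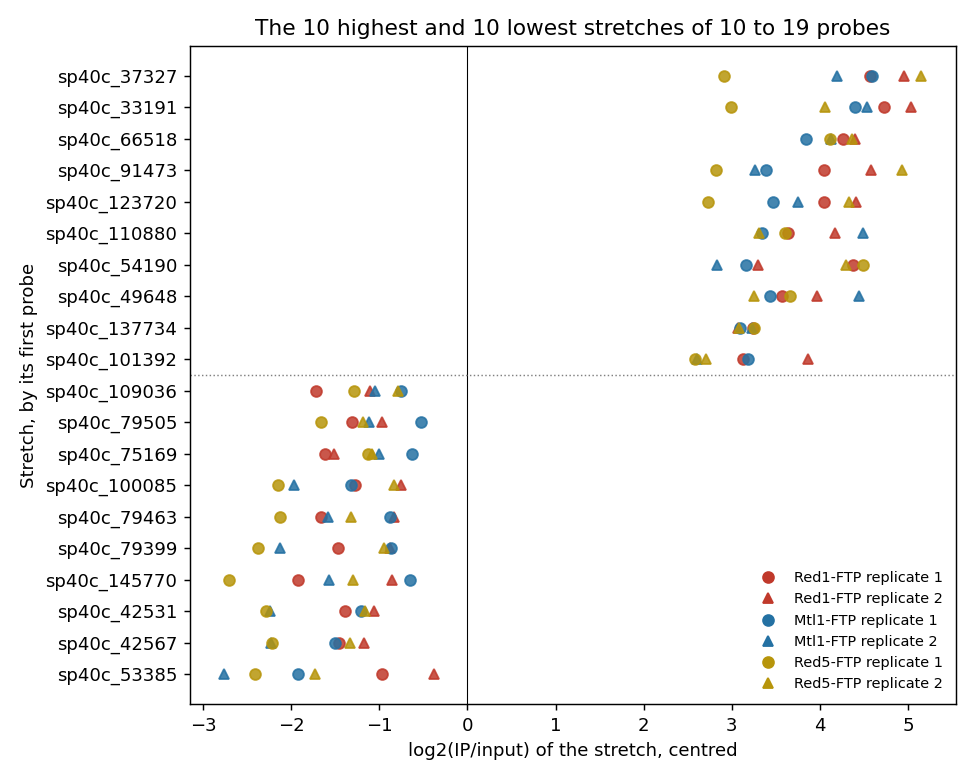
Log2 ratio of IP over input (horizontal axis) on each of 6 arrays for the 10 highest and 10 lowest shorter stretches that were called and had the same sign on 6 of 6 arrays, named by their first probe (vertical axis). The 10 highest have means of 3.01 to 4.39 and the 10 lowest of -1.69 to -1.12, and no array crosses 0.

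None of the 5 stretches with the highest input signals was called lower in the IP. The highest input, 32078, belonged to the stretch at sp40c_16150, which had 1.29 and 0.40 on the Red1-FTP arrays, 0.59 and 0.43 on the Mtl1-FTP arrays and 1.29 and 1.01 on the Red5-FTP arrays. Its mean of 0.84 (SE 0.12) passed (limma adjusted p = 7.63e-04). The stretch at sp40c_51633, with an input of 15667, had a mean of 0.81 (limma adjusted p = 0.00201) and lay 4 probes from a stretch at sp40c_51599, with an input of 508, that had 2.50. The stretches at sp40c_52533 and sp40c_55525 had means of 0.50 and 0.39 and also passed (limma adjusted p = 0.0164 and 0.0197), but with the arrays centred on their means they were at 0.16 and 0.06 and did not. The stretch at sp40c_42703 had a mean of 0.16 and did not pass (limma adjusted p = 0.242). With arrays centred on their means it was -0.18.

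Differences between baits were hard to find. No shorter stretch differed between Red1-FTP and Mtl1-FTP in either direction by limma (0 and 0.0256% of all stretches were higher and lower), or between Red1-FTP and Red5-FTP (0 and 0% of all). Between Mtl1-FTP and Red5-FTP, 1 was higher with Mtl1-FTP (0.0512% of all) and 0 lower (0% of all). At an unadjusted p under 0.05, 14 shorter stretches (1.46%) were higher with Red1-FTP than with Mtl1-FTP and 87 (9.09%) lower, where over all stretches the shares were 1.92% and 4.81%. For Red1-FTP minus Red5-FTP, 23 (2.40%) were higher and 70 (7.31%) lower, where the shares over all stretches were 2.41% and 3.4%. For Mtl1-FTP minus Red5-FTP, 62 (6.48%) were higher and 64 (6.69%) lower, where they were 4.38% and 4.96%. With the slide as a random block, 28 shorter stretches (2.93%, against 1.2% of all) differed between Mtl1-FTP and Red5-FTP at the adjusted threshold. Under that block 16 (1.67%, against 0.614% of all) differed between Red1-FTP and Mtl1-FTP, and 13 (1.36%, against 0.461% of all) between Red1-FTP and Red5-FTP.

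The stretch that differed began at sp40c_116730, with 11 probes on the even strand and 14 probes to the next stretch. Its log2 ratios were 1.94 and 2.11 on the Mtl1-FTP arrays, against 0.07 and -0.10 on the Red5-FTP arrays and 0.34 and 0.25 on the Red1-FTP arrays. The Mtl1-FTP arrays, which lay on different slides, were both above the other 4. Mtl1-FTP minus Red5-FTP was 2.04 (SE 0.23, limma adjusted p = 0.0452), and Red1-FTP minus Mtl1-FTP was -1.73 (SE 0.23, limma adjusted p = 0.0952). On slide 1 the Mtl1-FTP array had 1.94, the Red5-FTP array 0.07 and the Red1-FTP array 0.34. Input signals were 244 and 414 with Mtl1-FTP, 617 and 901 with Red5-FTP and 266 and 305 with Red1-FTP, so the input of the Mtl1-FTP arrays was below that of the Red5-FTP arrays. The median input of all shorter stretches was lower there too, at 208 and 356 with Mtl1-FTP against 474 and 504 with Red5-FTP. The IP signals were 768 and 1639 with Mtl1-FTP, 590 and 722 with Red5-FTP and 275 and 289 with Red1-FTP. With 1 Mtl1-FTP array left out the difference was 2.12 or 1.95 and did not pass, in fits where the lone Mtl1-FTP array was assumed to vary like the other baits' arrays.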

How the data were processed

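RNA purified with 3 baits was hybridised against total RNA on 6 arrays, grouped by their labels. For each array the authors deposited a table made with Agilent Feature Extraction 10.7.3.1. Its processed signals are deposited intensities from which the software had subtracted background and which it had normalized between dyes, and the deposited flags mark spots well above background (score 1 or 0). A value table that the authors also deposited holds log2 ratios, set to 0 at 53.9 to 63.8% of probes per array. The positions of single probes were not given in the sources used here.

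Outlier spots (2 to 9 tile probes per array) were left out, log2 of processed Cy5 over Cy3 was centred per array on its non-control median, and on probes were averaged per stretch. With limma 3.58.1 in R 4.3.3, all stretches were fitted on bait, with stretch length as a covariate of the prior variance. Class means gave 1 value per array for 8 contrasts, tested by exact sign flips. P-values measure only the spread between these arrays and take the arrays as independent, although slides were shared. Named stretches are the 10 highest and 10 lowest among those called with the same sign on 6 of 6 arrays, the 5 with the highest input, and up to 3 in each direction per bait pair. The neighbours named beside them were chosen after their values were seen. Members and tests were chosen with earlier results of these data known. The number of arrays limits the precision. Scripts were tested on simulated data.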

Additional observations from a re-analysis of the deposited data

Results flagged for a closer look

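The stretch at sp40c_116730 differed between baits by a test of the difference itself. Mtl1-FTP minus Red5-FTP was 2.04 in log2 ratio, with a standard error of 0.23 and n = 2 arrays each (limma adjusted p = 0.0452). In the 12 fits run for it the difference ranged from 1.64 to 2.12. It did not pass without either Mtl1-FTP array or without stretch length as a covariate (limma adjusted p from 0.101 to 0.702 in these 3 fits, where a lone Mtl1-FTP array was assumed to vary like the others).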

How the results depend on the processing

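The 8 class contrasts kept their direction in the alternatives run for them, save for 2 contrasts. Less minus more input had values of -0.0589 without bridging, -0.00660 with length counted in on probes and -0.0167 at stretches with a quiet opposite strand, and outer minus inner probes was -0.00259 within slide 2. The cause was not tested. Some alternatives brought contrasts to an adjusted p of 0.0417, under the threshold. Their exact permutation p before adjustment was 0.03125, the smallest that 6 arrays allow. The adjusted p therefore moved with how many of the 8 contrasts reached that value. For a contrast already at it in the report, passing does not mean a larger or firmer difference. For shorter minus long these were 0.28 with normexp, 0.35 before dye normalization, 0.33 with probes detected in the IP, 0.34 with bridged probes and 0.37 with inputs of the other replicate number. In the same order of alternatives, shorter minus very short was -0.28, -0.39, -0.37, -0.37 and -0.30, side A minus side B 0.19, 0.23, 0.23, 0.26 and 0.23, and opposite detected minus quiet 0.56, 0.67, 0.65, 0.64 and 0.63. Shorter minus long at matched input passed with normexp (0.25), before dye normalization (0.31), with bridged probes (0.32) and with the other inputs (0.35). Isolated minus neighboured passed with probes detected in the IP (0.15), with bridged probes (0.16) and with the other inputs (0.12). Outer minus inner passed with normexp (0.0547), before dye normalization (0.0885) and with probes detected in the IP (0.0628). Other alternatives raised the adjusted p, to 0.0833 or above for all contrasts with length counted in on probes and to 0.109 or above at stretches with a quiet opposite strand. Isolated minus neighboured was 0.0909 (adjusted p = 0.107) with isolation set at 20 probes, 0.0946 (0.146) with a quiet opposite strand and 0.289 (0.0833) without bridging, by exact permutation. Less minus more input was 0.20 before dye normalization, 0.13 with the other inputs (adjusted p = 0.0714, exact permutation) and 0.19 within slide 2. Opposite detected minus quiet has no value where only stretches with a quiet opposite strand are kept. With 5 arrays the smallest sign-flip p is 0.0625, so leaving out an array gives values only, which kept all signs.

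Counts of stretches higher in the IP, 366 in the report, moved to 186 before dye normalization, 149 with the mean as centre, 172 with the value table (chosen after seeing the data), 234 at stretches with a quiet opposite strand (707 kept), 176 on the 3 arrays of replicate 2 alone, with 969 stretches set by the inputs of replicate 1, and 82 with a log2 ratio above 1. Counts lower, 172 in the report, moved to 70 with normexp, 261 before dye normalization, 398 with the mean as centre, 277 with the value table, 265 without bridging, 60 on the 3 arrays of replicate 1 alone (854 stretches set by the inputs of replicate 2), 92 on those of replicate 2 alone, and 19 under -1. Over all stretches the counts moved in the same direction in each of these settings. At a quiet opposite strand 783 of all 2488 were higher, and on the arrays of replicate 2 alone 960 of 4223. Without bridging the 265 lower were of 1080 shorter stretches, against 1204 of all 4811. On the arrays of replicate 1 alone 595 of all 3876 were lower, and on those of replicate 2 alone 479 of 4223. Leaving out an array gave 258 to 414 higher and 115 to 172 lower, against 1138 to 1456 and 567 to 939 of all 3908. With the slide as a random block, 272 of the 957 stretches were higher and 122 lower, against 1139 and 622 of all 3908.

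Between baits, the slide as a fixed block gave 124 higher and 114 lower for Red1-FTP minus Mtl1-FTP, 83 and 191 for Red1-FTP minus Red5-FTP and 152 and 293 for Mtl1-FTP minus Red5-FTP, from a fit with little left to estimate the spread. These are counts of 957 stretches. Over all 3908 stretches the counts were 305 and 368, 420 and 371, and 772 and 669 in the same order. The slide as a random block gave 0 and 16, 2 and 11, and 12 and 16 for these pairs, against 0 and 24, 3 and 15, and 20 and 27 of all. For Mtl1-FTP minus Red5-FTP, normexp gave 5 lower (22 of all) and the fit without stretch length 0 higher (0 of all). Leaving out an array gave 0 to 2 higher and 0 to 12 lower for Red1-FTP minus Mtl1-FTP (2 and 12 without Red5-FTP replicate 1 or 2), 0 to 2 higher and 0 to 1 lower for Red1-FTP minus Red5-FTP (2 and 1 without Red5-FTP replicate 2), and 0 to 1 in both directions for Mtl1-FTP minus Red5-FTP. The 25 stretches named for their level kept their sign in the settings that gave them a value, 21 to 23 per stretch. The exception was sp40c_42703, at -0.18 with the mean as centre and -0.0514 with the value table. Some, such as sp40c_91473, had no value without bridging.

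The replicate numbers did not pair the arrays of all baits alike. Same-numbered Red1-FTP and Red5-FTP arrays shared a slide. Mtl1-FTP replicate 1 shared slide 1 with the other first replicates, whereas Mtl1-FTP replicate 2 was alone on slide 3. The main fit, on bait alone, left this sharing out. Deviations of same-numbered arrays correlated at 0.73 between the Red1-FTP and Red5-FTP arrays, while the Mtl1-FTP arrays correlated at -0.54 with those of Red1-FTP and at -0.64 with those of Red5-FTP. Arrays thus also grouped across slides. Shorter minus long was 0.40, 0.50 and 0.66 on Red1-FTP replicate 1, Mtl1-FTP replicate 2 and Red5-FTP replicate 1. On Red1-FTP replicate 2, Mtl1-FTP replicate 1 and Red5-FTP replicate 2 it was 0.01, 0.22 and 0.17. A slide block does not follow this grouping, and its cause was not tested. With the replicate block, 366 stretches were higher and 167 lower, 353 and 165 of them shared with the fit without it.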

Other observations

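A pair of shorter stretches looked nearly the same probe by probe, which was noticed after their values were seen. The stretches at sp40c_49648 and sp40c_110880 both had 10 probes, a fully detected opposite strand, and a very short run of 4 probes 5 probes before them on the lower-numbered side, with ratios of 1.62 and 1.53. In array order, their log2 ratios were 3.57, 3.97, 3.43, 4.45, 3.66 and 3.26 at sp40c_49648 and 3.64, 4.17, 3.34, 4.49, 3.61 and 3.31 at sp40c_110880. Over 60 probe numbers around the starts, the mean input correlated at 0.93 and the mean log2 ratio at 0.89. Among 457054 pairs of shorter stretches compared in the same way, it was the only pair with both correlations above 0.8. The lower of both correlations had a median of -0.03 over all pairs, and the pair next in rank reached 0.74. Whether the probes share sequence was not tested, and the values of these 2 stretches may not be independent.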
